A study of Mus musculus with 38 samples.

Results

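AMPA and kainate receptors are ionotropic glutamate receptors assembled from 9 subunits between them. Their genes were taken by symbol from a table of 54165 genes: Gria1, Gria2, Gria3 and Gria4 for AMPA receptors, and Grik1, Grik2, Grik3, Grik4 and Grik5 for kainate receptors. All 9 were present, and each was counted in every library, from 496 reads for Grik1 to 211396 reads for Gria1. AMPA receptors carry most fast excitatory transmission in the brain, and channels that contain the edited Gria2 product pass little calcium. Kainate receptors act on both sides of the synapse. The products of Grik1, Grik2 and Grik3 can form channels alone, whereas those of Grik4 and Grik5 bind kainate with high affinity and need one of the former as a partner.

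RNA was sequenced from bulk prefrontal cortex (PFC, 20 libraries) and hypothalamus (Hypo, 18 libraries) of 25 adult mice on the FVB/NJ background, 13 of which gave both tissues. Ube3a2X mice were homozygotes of 1 transgenic line that carry 2 copies of a Ube3a transgene, and wild-type (WT) littermates were the controls. Each of the 4 PFC groups of genotype and sex held 5 mice, and in Hypo there were 4 WT females, 4 WT males, 5 Ube3a2X females and 5 Ube3a2X males. PFC was collected as micropunches and Hypo was excised whole. RNA was isolated with a different kit for each tissue and library input differed too, so preparation cannot be told apart from tissue. The labels name no drug or other treatment. The study asked whether extra Ube3a acts differently in females and males. Here the subunit make-up of both receptor classes was compared between tissues, genotypes and sexes.

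The libraries held 36.9 to 381 M counted reads, with a median of 62.6 M. Levels are given as CPM, read counts relative to library size after TMM scaling (trimmed mean of M values). Ube3a, the targeted gene, ranged from 183 to 260 CPM in WT and from 686 to 2169 CPM in Ube3a2X PFC, and from 103 to 355 and from 745 to 1724 CPM in Hypo. The tissue labels matched their markers. The summed level of 10 hypothalamic neuron genes was 528 to 2131 CPM in Hypo and 1.08 to 3.74 CPM in PFC, where Avp, Hcrt, Nkx2-1, Otp, Oxt and Sim1 had medians near 0, and that of 6 cortical excitatory genes was 1986 to 2680 CPM in PFC and 31.8 to 52.7 CPM in Hypo. Pituitary genes summed to between 37.2 and 4667 CPM in Hypo. RNA integrity numbers (RIN) were lower in PFC (6.7 to 8.9) than in Hypo (6.8 to 9.3, median 8.95). The median 5′ to 3′ bias of coverage was 0.442 in PFC and 0.735 in Hypo. Hypo WT female 471 stood apart in the share of bases from untranslated regions (UTR), at 53.7% against 35.9 to 44.0% in the other 17 Hypo libraries and 40.3 to 49.99% in the 20 PFC libraries.

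The pore-lining codon that RNA editing can change is encoded in the same way in nearly all of these genes. The sequences below, from GENCODE vM21 transcripts on GRCm38, are shown because editing at this codon, and not only the amount of each RNA, sets how much calcium the channel passes. They are 27-base windows on the gene's own strand, with the codon in capitals. In Grik1 and Grik2 the window joins 2 neighbouring exons, and in the others it lies within 1 exon. The codon lies at chr3:80706911-80706913 (minus strand) in Gria2, chrX:41610265-41610267 (plus strand) in Gria3, chr16:87940542-87940544 (minus strand) in Grik1, chr10:49244329-49244331 (minus strand) in Grik2 and chr7:25022497-25022499 (minus strand) in Grik5.
Gria2: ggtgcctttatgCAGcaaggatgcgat
Gria3: ggtgcttttatgCAGcaaggatgtgat
Grik1: ggagctctcatgCAGcaaggatcggag
Grik2: ggagctctcatgCAGcaaggttctgag
Grik5: ggtggcttcatgCAGcagggctcggag
The genome encodes CAG at this place in 8 of the 9 genes and CAA in Gria4. Over the window, Gria3 differed from Gria2 at 2 bases, Grik1 from Grik2 at 2 bases, and Grik2 from Gria2 at 8 bases. In the brain the Gria2, Grik1 and Grik2 transcripts are edited here, at the middle base of the codon. Gene counts hold no information on editing, so what follows is about amounts only.

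AMPA receptor subunits differed in make-up between the tissues, with a larger share of Gria1 in Hypo and of Gria3 in PFC. To compare genes with one another, reads were divided by the length of all exons of the gene, and each subunit was expressed as a share of the 4 AMPA genes. Gria1 made up 36.0% ± 2.13 (SD, n = 20) of the AMPA pool in PFC and 57.7% ± 2.41 (SD, n = 18) in Hypo. The ranges, 32.2 to 39.5% and 54.7 to 65.3%, did not overlap. Gria2 made up 27.5% ± 1.70 in PFC and 20.3% ± 1.83 in Hypo, also without overlap at this length. Gria3 made up 23.5% ± 0.799 in PFC and 7.05% ± 0.297 in Hypo, and every PFC library, from 22.1% up, lay far above the highest Hypo library at 7.69%. Gria4 differed less, at 13.05% ± 0.917 in PFC and 14.9% ± 0.864 in Hypo, with ranges that overlapped at this length and did not with coding length (7.58 to 9.57% and 9.97 to 12.1%).

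**Figure D1:**
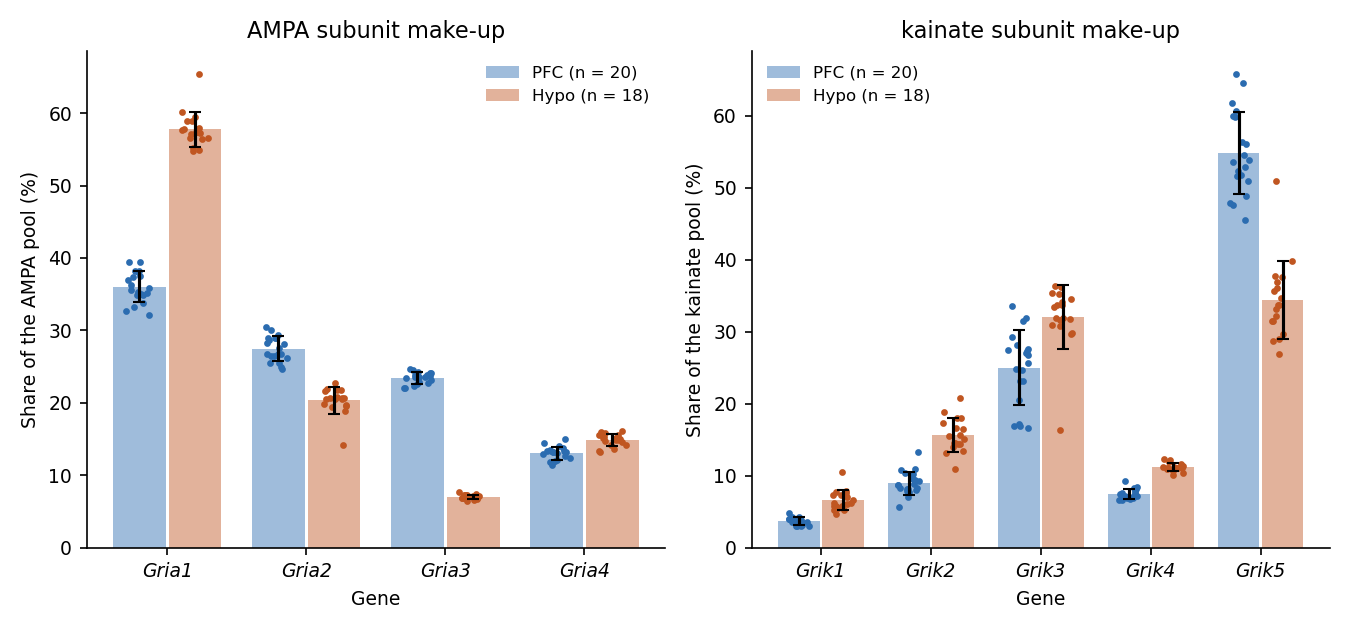
Share of each subunit in the AMPA pool (left) and the kainate pool (right), in percent of exon-length-scaled reads. Bars are means, error bars are SD over 20 PFC and 18 Hypo libraries, and points are single libraries. Gria1 takes 57.7% of the AMPA pool in Hypo against 36.0% in PFC, and Grik5 takes 54.8% of the kainate pool in PFC against 34.4% in Hypo.

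These shares held within animals. In the 13 mice with both tissues, the Gria1 share was higher in Hypo in 13 of 13, by 21.7 percentage points on average (SD 2.53), and the Gria3 share was higher in PFC in 13 of 13, by 16.5 points (SD 0.875). The Gria2 share was higher in PFC in 13 of 13 mice, and the Gria4 share was higher in Hypo in 12. Dividing by the coding length in place of the exon length changed the order within a tissue. With coding length, Gria2 took 44.6% of the PFC pool and Gria1 22.5%, so which of them leads in PFC depends on the length used. The gene with the longest annotated exons is Gria2 (15548 bases, of which 2804 are coding), whereas Gria1 has 6043 and 2836. In Hypo Gria1 led by exon length, whereas with coding length its range (38.6 to 51.0%) overlapped that of Gria2 (29.0 to 41.8%).

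In the kainate pool Grik5, a subunit that cannot form channels alone, was the largest component of PFC, at 54.8% ± 5.71 (SD, n = 20) against 34.4% ± 5.41 (n = 18) in Hypo. The ranges, 45.5 to 65.7% and 27.0 to 50.9%, overlapped through Hypo WT female 471, the highest Hypo library. Grik3 followed, with 25.02% ± 5.17 in PFC and 32.1% ± 4.43 in Hypo. Grik2 made up 8.98% ± 1.61 in PFC and 15.7% ± 2.36 in Hypo, Grik4 7.45% ± 0.706 and 11.2% ± 0.546, and Grik1, the rarest, 3.73% ± 0.498 and 6.61% ± 1.38. Of these 5 genes, Grik4 alone had ranges that did not overlap (6.64 to 9.32% in PFC, 10.2 to 12.3% in Hypo), and with coding length they overlapped (5.64 to 8.42% and 8.02 to 9.90%). Within mice, the Grik5 share was higher in PFC in 13 of 13, and the Grik1, Grik2 and Grik4 shares were higher in Hypo in 13 of 13. Grik4 and Grik5 together, the subunits that need a partner, made up 62.3% ± 5.80 of the kainate pool in PFC and 45.6% ± 5.24 in Hypo, and 45.4% ± 5.996 and 30.1% ± 4.85 with coding length. The order of the kainate genes depends on the length too. With coding length Grik5 took 38.9% and Grik3 34.1% in PFC, whereas in Hypo Grik3 led at 38.5%, followed by Grik2 (25.9%) and Grik5 (21.5%).

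The level per kilobase of exon (RPKM, that is CPM divided by kilobases) gives the order of the genes. In PFC the medians fell from Gria1 (68.0 RPKM) through Gria2 (50.4), Gria3 (43.6), Grik5 (32.8), Gria4 (24.4), Grik3 (15.4), Grik2 (5.28) and Grik4 (4.46) to Grik1 (2.42). Neighbours in this order overlapped between libraries except at the steps from Grik3 to Grik2 and from Grik4 to Grik1. In Hypo the order was Gria1 (88.1 RPKM), Gria2 (32.0), Gria4 (23.7), Grik5 (18.8), Grik3 (18.4), Gria3 (10.999), Grik2 (8.68), Grik4 (6.37) and Grik1 (3.50). There the gap between Gria1 and Gria2 was the only one without overlap. The 4 AMPA genes summed to 187 ± 18.1 RPKM in PFC and 153 ± 19.6 RPKM in Hypo, and the 5 kainate genes to 61.6 ± 8.77 and 56.0 ± 5.48 RPKM. The ratio of the AMPA to the kainate sum was 3.09 ± 0.493 in PFC and 2.73 ± 0.302 in Hypo, with overlapping ranges, and was higher in PFC in 9 of 13 mice.

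For each gene by itself, 8 of the 9 subunits differed between PFC and Hypo, 4 higher in PFC and 4 higher in Hypo. Among all 14219 genes tested, 68.4% passed the same test, 32.8% higher and 35.6% lower in PFC, so the number of subunits called is near the background of these tissues. The test was edgeR's quasi-likelihood test on counts, with RIN as a covariate and Benjamini-Hochberg adjustment over all genes, as in the later comparisons. In bulk tissue, fewer cells of a type and less RNA per cell cannot be told apart.

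Gria3, which lies on the X chromosome, showed the greatest contrast. It ranged from 354 to 561 CPM (median 429) in PFC and from 59.3 to 129 CPM (median 108) in Hypo, so the lowest PFC library held more than the highest Hypo library. The log2 difference, PFC minus Hypo, was 2.17 (SE 0.09, edgeR adjusted p = 6.79e-21), a 4.49-fold higher level. It was positive in all 4 combinations of genotype and sex, from 1.90 to 2.20. Gria2, the subunit that limits calcium entry, ranged from 615 to 1051 CPM (median 783) in PFC and from 188 to 606 CPM (median 497) in Hypo, without overlap. Its log2 difference was 0.82 (SE 0.12, edgeR adjusted p = 3.43e-07). The lowest Hypo value was that of WT female 471, and the next lowest was 450 CPM.

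Gria1 went the other way. It ranged from 327 to 486 CPM (median 411) in PFC and from 334 to 630 CPM (median 532) in Hypo. The log2 difference was -0.24 (SE 0.08, edgeR adjusted p = 0.00501). It was lower in PFC in 13 of 13 mice, but with the mouse as a block and RIN kept it was not called (log2 difference -0.24, edgeR adjusted p = 0.171). Without Hypo WT female 471 its ranges were separate, with 503 to 630 CPM in Hypo. Gria4 ranged from 124 to 223 CPM (median 154) in PFC and from 71.0 to 162 CPM (median 149) in Hypo. Its ranges overlapped, and the log2 difference was 0.25 (SE 0.11, edgeR adjusted p = 0.0352). This call was lost on leaving out any of 6 of the 38 libraries, and without PFC Ube3a2X female 468, the highest, the difference was 0.14 (adjusted p = 0.226). With the mouse block it was 0.40 (edgeR adjusted p = 0.0663), also not called.

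**Figure D2:**
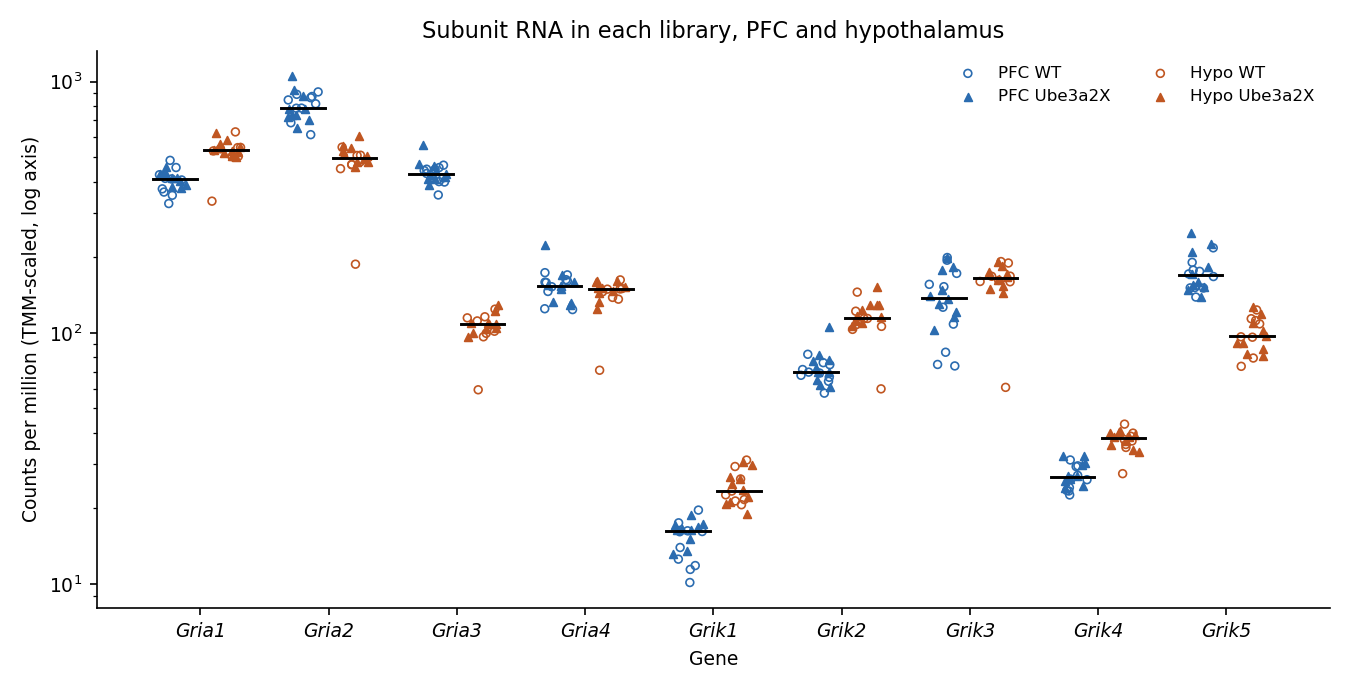
Level of each subunit gene in each library, in CPM on a log axis. Blue points are PFC and orange points Hypo, open circles are WT and filled triangles Ube3a2X, and black bars are medians. Gria3 in PFC (median 429 CPM) lies wholly above Hypo (median 108 CPM), and the low Hypo point in most of the genes is WT female 471.

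Among the kainate genes, Grik5 was higher in PFC and the less abundant Grik1, Grik2 and Grik4 were higher in Hypo in the unblocked fit. Grik5 ranged from 138 to 249 CPM (median 169) in PFC and from 73.6 to 126 CPM (median 97.0) in Hypo, without overlap. Its log2 difference was 0.83 (SE 0.11, edgeR adjusted p = 5.09e-08), a 1.78-fold higher level. Grik2, which encodes the most studied channel-forming kainate subunit, ranged from 57.6 to 105 CPM (median 70.0) in PFC and from 59.9 to 152 CPM (median 115) in Hypo. All Hypo libraries but WT female 471, at 59.9 CPM, lay above most of the PFC libraries, and the log2 difference was -0.51 (SE 0.11, edgeR adjusted p = 0.000169). Grik1 ranged from 10.2 to 19.7 CPM (median 16.3) in PFC and from 19.0 to 31.2 CPM (median 23.5) in Hypo. Its log2 difference was -0.45 (SE 0.09, edgeR adjusted p = 7.50e-05). Grik4 ranged from 22.6 to 32.4 CPM (median 26.6) in PFC and from 27.5 to 43.3 CPM (median 38) in Hypo, with a log2 difference of -0.39 (SE 0.07, edgeR adjusted p = 2.69e-05). Each of these 3 genes was lower in PFC in 13 of 13 mice. With the mouse as a block and RIN kept, the calls of Grik1 (log2 difference -0.30, edgeR adjusted p = 0.180) and Grik2 (-0.50, adjusted p = 0.0876) were lost.

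Grik3 was not called. It ranged from 73.8 to 199 CPM (median 138) in PFC and from 60.7 to 192 CPM (median 165) in Hypo. Its log2 difference was 0.04 with a 95% interval of -0.32 to 0.40 (edgeR adjusted p = 0.837), so a difference of up to about that size in either direction was not detectable. Within mice it was higher in Hypo in 11 of 13, and the mean of PFC minus Hypo was -0.28 on the log2 scale (SD 0.445), before any RIN term. Relative to its mean it was the most variable of the 9 genes in PFC, with an SD of 39.9 CPM around a mean of 140 CPM.

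Of the 9 genes, 3 had ranges that did not overlap between tissues (Gria2, Gria3 and Grik5), a state that 24.7% of all genes tested shared. Without Hypo WT female 471, 5 did, with Gria1 and Grik4 added, against 32.1% of all genes. RIN differed between the tissues and was a term of the fit. With the mouse as a block in the 13 mice with both tissues, and RIN kept, 4 of the 9 genes passed (Gria2, Gria3, Grik4 and Grik5), against 43% of all genes in that fit. With the same block and no RIN term, 8 of the 9 passed, against 74% of all genes. Gria4 was then the one not called (log2 difference 0.13, edgeR adjusted p = 0.110), and Grik3 was called lower in PFC (log2 difference -0.29, adjusted p = 0.0364). For Grik3 the difference was 0.17 (edgeR adjusted p = 0.628) with the block and RIN, and -0.16 (adjusted p = 0.204) with neither, so its sign was positive with the RIN term and negative without it, in blocked and unblocked fits. With the UTR share added to RIN, the Gria1 difference was -0.10 (edgeR adjusted p = 0.107) and was no longer called, beside 75.2% of all genes that were. Leaving out Hypo WT male 423, the Hypo library with the lowest RIN, ended the calls of Gria1 (log2 difference -0.23, adjusted p = 0.0517) and Grik1 (-0.24, adjusted p = 0.0759). By DESeq2 the same 8 genes passed as in the main comparison, beside 69.2% of all genes.

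The tissues also differed in the levels of cell type markers. All 6 oligodendrocyte genes were higher in Hypo, with summed levels of 3137 to 5120 CPM against 962 to 3453 CPM in PFC, and all 4 genes of cortical interneuron classes were higher in PFC (290 to 411 CPM against 178 to 244 CPM). Of 5 inhibitory neuron genes, 1 was higher and 3 were lower in PFC (673 to 850 CPM in PFC, 614 to 1239 CPM in Hypo). All 5 microglial genes were higher in PFC (173 to 295 CPM against 132 to 181 CPM), and 4 of 6 astrocyte genes were higher in Hypo (1662 to 2195 CPM against 885 to 2176 CPM). Their part in the subunit differences was not tested.

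Auxiliary subunits and genes for receptor assembly and clustering were taken as lists. Of 30 such genes, 29 were tested between tissues, and 21 were higher in PFC and 5 lower, against 32.8% and 35.6% of all genes. Among the 6 TARPs, a family of AMPA receptor auxiliary subunits, 4 were higher in PFC and 2, Cacng4 and Cacng5, were lower. Cacng3 ranged from 115 to 206 CPM in PFC and from 15.8 to 25.05 CPM in Hypo, with a log2 difference of 3.02 (SE 0.09, edgeR adjusted p = 1.28e-24). Cacng5 stood at 7.51 to 11.9 CPM in PFC and 28.3 to 49.9 CPM in Hypo (log2 difference -2.13, SE 0.08). Cacng2, known as stargazin, had a log2 difference of 0.73 (SE 0.07) and Cacng8 one of 0.97 (SE 0.12), both higher in PFC. The cornichon and related AMPA auxiliary genes split 4 higher and 1 lower of 6 tested. Cnih2 had a log2 difference of 0.87 (SE 0.15) and Cnih3 of 1.74 (SE 0.12), and the outermost called genes were Gsg1l at 1.89 (SE 0.11) and Shisa6 at -0.30 (SE 0.11).

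**Figure D3:**
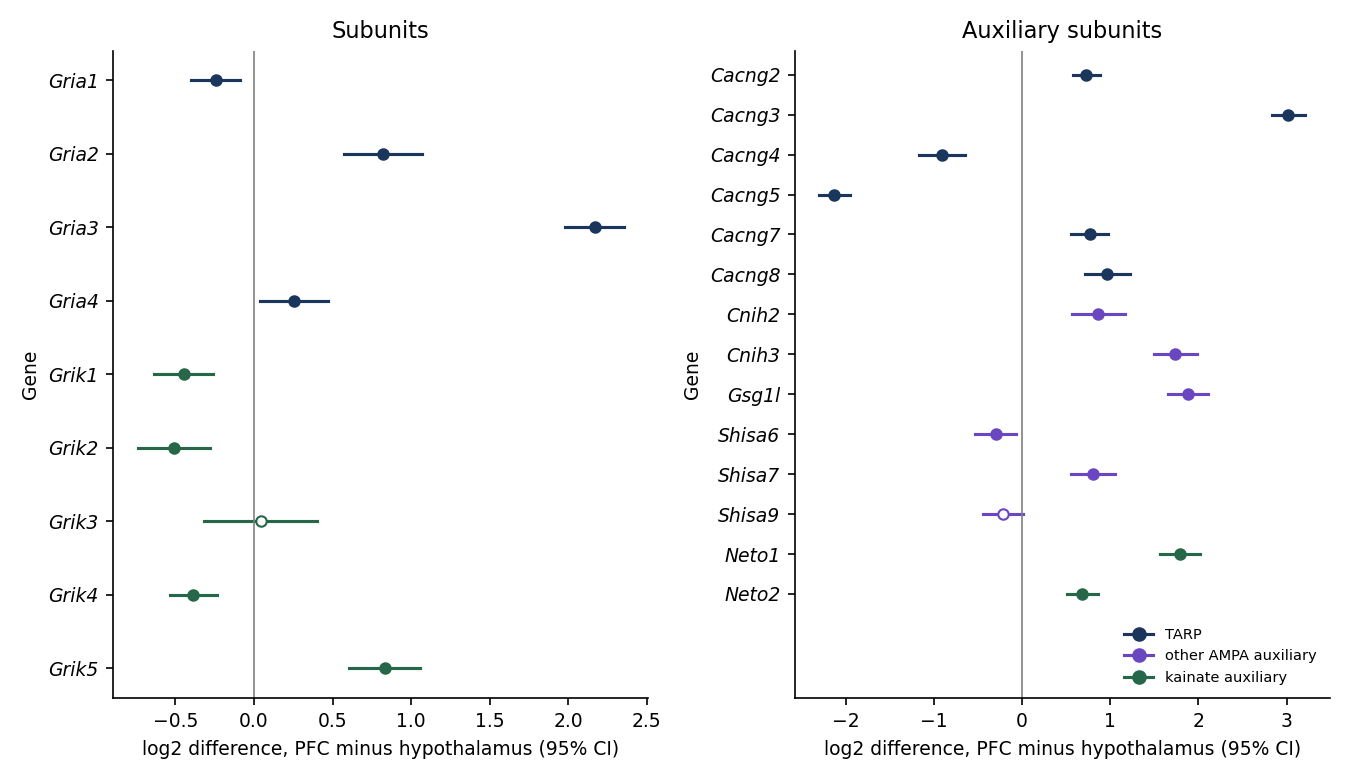
Log2 difference, PFC minus hypothalamus, for the 9 subunits (left) and for their auxiliary subunits (right), with 95% intervals from the edgeR fit. Filled points passed an adjusted p of 0.05 and open points did not. Gria3 (2.17) and Cacng3 (3.02) lie farthest to the right in their panels, and Cacng5 (-2.13) farthest to the left.

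The kainate auxiliary subunits Neto1 and Neto2, which tune channel kinetics, were both higher in PFC. Neto1 ranged from 152 to 298 CPM in PFC and from 36.6 to 74.9 CPM in Hypo, with a log2 difference of 1.79 (SE 0.11, edgeR adjusted p = 3.05e-16). Neto2 had a log2 difference of 0.68 (SE 0.09). Of the 15 genes for receptor assembly and clustering, 11 were higher in PFC and 2 lower. The outermost were a pair of secreted C1q-like proteins that bind kainate receptors or their partners at synapses. C1ql3 stood at 146 to 242 CPM in PFC and 13.7 to 39.1 CPM in Hypo (log2 difference 2.88, SE 0.14), and C1ql2 at 0.224 to 1.03 CPM in PFC and 4.33 to 21.5 CPM in Hypo (log2 difference -3.82, SE 0.22). Of the editing enzymes, Adarb1, which edits the Gria2 codon printed above, had a log2 difference of 0.36 (SE 0.09, edgeR adjusted p = 0.000415), and Adar one of -0.54 (SE 0.08).

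By edgeR's test, genotype averaged over the sexes left no called change in the 9 genes, in either tissue. In PFC, where 0.0183% of 10900 genes tested passed by genotype over both sexes, none of the subunits did. DESeq2 and limma-voom called none either, and 2 of the 8 tested had an unadjusted p under 0.05 by edgeR, beside 7.93% of all genes. They were Grik1, with a log2 difference, Ube3a2X minus WT, of 0.20 (95% interval 0.07 to 0.33, edgeR adjusted p = 0.384), and Grik3 at 0.21 (0.02 to 0.40, adjusted p = 0.598). Gria1 had an interval of -0.09 to 0.11. Gria3 was among the 15% least variable genes of PFC, which were left out before the adjustment. In a fit that kept them, its log2 difference was -0.02 (-0.11 to 0.08, edgeR adjusted p = 0.949). In Hypo, where 0.00843% of 11869 genes passed, none of the 9 did by edgeR, DESeq2 or limma-voom, and 1 had an unadjusted p under 0.05 by edgeR, beside 5.1% of all genes. This was Grik3 at -0.11 (95% interval -0.21 to -0.01, edgeR adjusted p = 0.944), whose sign turned without the surrogate variables (0.079). In edgeR's test of a difference between tissues in the genotype effect, 0 of the 9 genes passed and 0 had an unadjusted p under 0.05, beside 0 and 8.66% of all genes. DESeq2 and limma-voom called none of the 9, and the 95% intervals reached from -0.55 (Gria2) to 0.62 (Grik3).

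**Figure D4:**
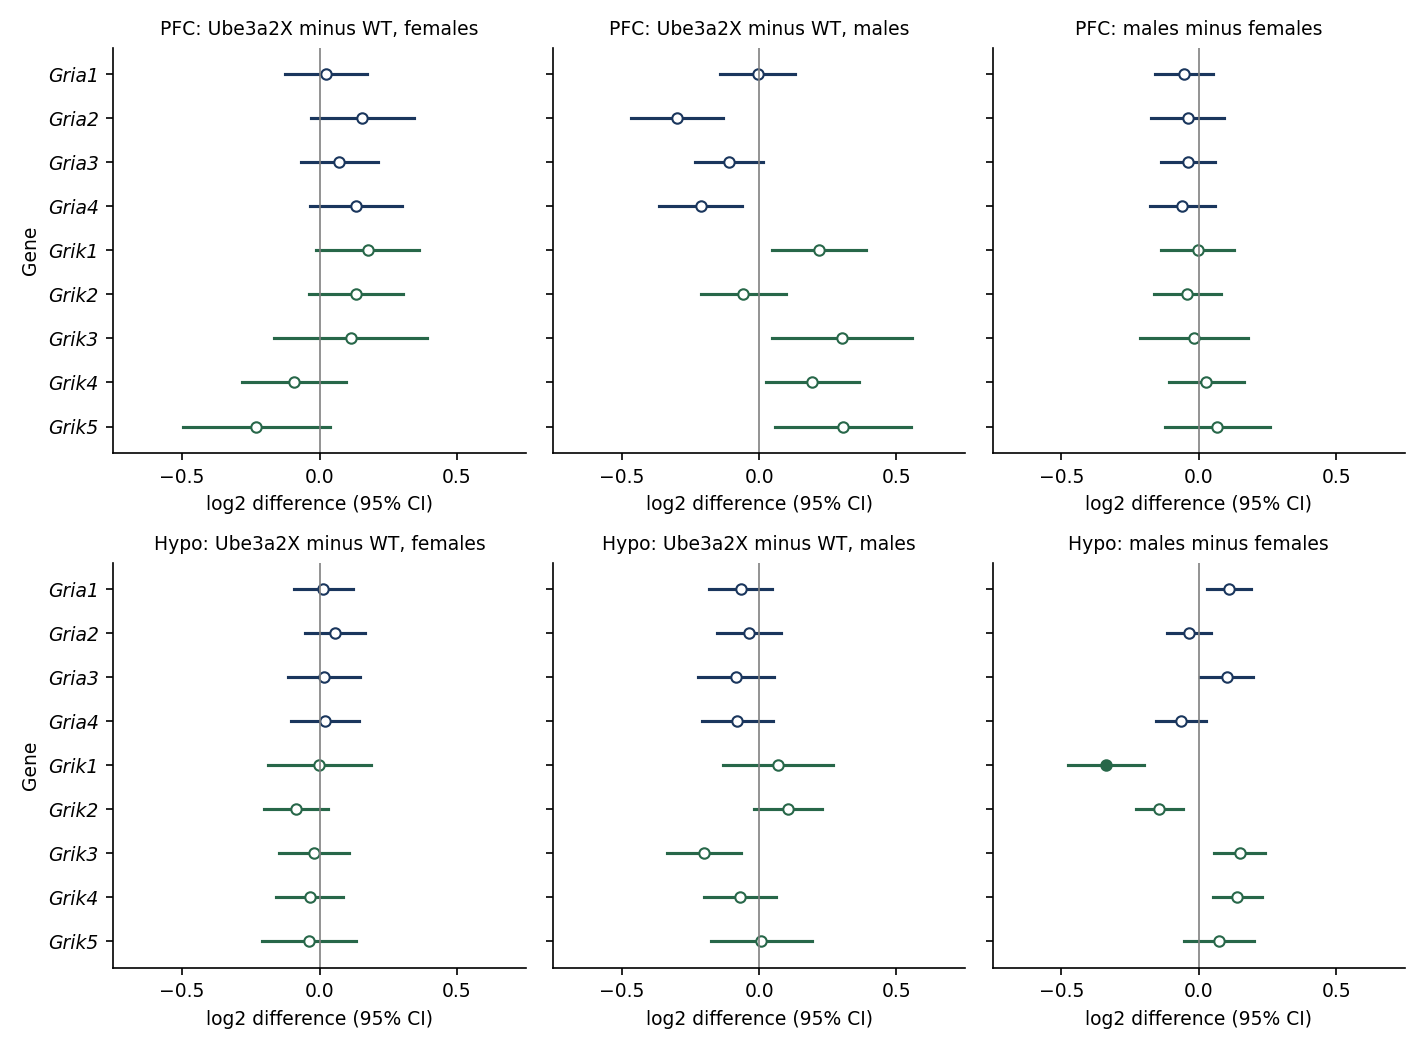
Log2 differences with 95% intervals for the 9 subunits in PFC (upper row) and Hypo (lower row): Ube3a2X minus WT in females, the same in males, and males minus females over both genotypes. Filled points passed an edgeR adjusted p of 0.05, and Grik1 in Hypo (-0.34) is the only one. Gria3 in PFC is from the fit that kept the least variable genes.

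Split by sex, no subunit passed for genotype in edgeR's test in either tissue. The values in PFC leaned in different directions in females and males for some of them. Gria2 in PFC males stood at 816, 845, 862, 872 and 909 CPM in WT and at 655, 704, 723, 736 and 738 CPM in Ube3a2X. These ranges did not overlap, which was so for 3.04% of all genes tested in PFC males and for Gria2 alone of the 9 subunits. The log2 difference was -0.30 (SE 0.08, edgeR adjusted p = 0.132). In PFC females Gria2 stood at 615, 685, 783, 784 and 889 CPM in WT and at 775, 781, 878, 922 and 1051 CPM in Ube3a2X. The ranges overlapped, with 2 Ube3a2X females above every WT female, and the log2 difference was 0.16 (SE 0.09, edgeR adjusted p = 0.405). On leaving out 1 library at a time this difference ranged from 0.03 to 0.28. The sex by genotype term, the genotype difference in males minus that in females, was -0.45 for Gria2 (SE 0.12, edgeR adjusted p = 0.0943). In PFC males 6 of the 8 subunits tested had an unadjusted p under 0.05 by edgeR, beside 18.5% of all genes, and 0.0183% of all genes passed after adjustment. In PFC females none did, beside 14.8% of all genes, and 0.00917% passed. In Hypo males 1 subunit had an unadjusted p under 0.05, Grik3 at -0.20 (SE 0.06, edgeR adjusted p = 0.534), beside 9.13% of all genes, and in Hypo females none did, beside 3.22%. DESeq2 and limma-voom called no subunit in these 3 strata.

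In PFC the values of Gria4 and Grik5 also leaned in different directions by sex, without a call by edgeR. Those of Grik5 leaned opposite to those of Gria2. Gria4, known for channels that close fast, stood at 146, 159, 159, 161 and 170 CPM in WT males and at 129, 131, 133, 150 and 153 CPM in Ube3a2X males. In females it stood at 124, 125, 153, 163 and 174 CPM in WT and at 154, 155, 160, 169 and 223 CPM in Ube3a2X. Most Ube3a2X males lay below the WT males and most Ube3a2X females among the higher WT females, with overlap in both sexes. The sex by genotype term was -0.35 (SE 0.11, edgeR adjusted p = 0.0950) for Gria4 and 0.53 (SE 0.17, edgeR adjusted p = 0.0995) for Grik5. On leaving out 1 library at a time this term ranged from -0.42 to -0.26 for Gria4 and from 0.31 to 0.62 for Grik5. Grik5 stood at 139, 151, 151, 176 and 178 CPM in WT males and at 138, 183, 209, 226 and 249 CPM in Ube3a2X males. In females it stood at 151, 168, 172, 191 and 218 CPM in WT and at 148, 153, 155, 159 and 171 CPM in Ube3a2X. All but 1 of the Ube3a2X males lay above every WT male, whereas the female ranges overlapped. Of the 8 subunits tested for this term, 4 had an unadjusted p under 0.05 (with Grik4 at 0.29), beside 25.4% of all genes, and none of the 10900 genes passed after adjustment by edgeR. By DESeq2, 3 of the subunits passed (Gria2, adjusted p = 0.0192, Gria4, 0.0328, and Grik5, 0.0418), as did 7.61% of all genes. DESeq2 also called Gria2 lower in Ube3a2X males (adjusted p = 0.0347), in a comparison where 2.19% of all genes passed in either direction. limma-voom called none. The study's own limma-voom model, also with RIN and 2 surrogate variables, did report genes for this term in PFC. The paper names Gria2 among them. Its filtered set of PFC genes was larger than the 10900 genes tested here. The cause of the different outcome was not tested. By edgeR, calls appeared on leaving out single libraries. Without PFC WT female 93 Gria2, Gria4 and Grik5 passed, beside 15.8% of all genes. The same 3 passed without PFC Ube3a2X male 253, beside 9.31% of all genes, and Gria2 passed without PFC Ube3a2X female 462, beside 6.49%. With RIN and the UTR share in place of the surrogate variables Gria2 and Gria4 passed, beside 10.2% of all genes. Without PFC WT female 397 the genes with an unadjusted p under 0.05 fell to 6.03%, and 2 of the subunits were among them (Gria2 at -0.31 and Gria4 at -0.26).

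Values on base composition stand beside this term. The GC content of the longest annotated transcript was 36.8% in Gria2, 44.3% in Gria4 and 61.7% in Grik5. The AT dropout, a measure of the loss of AT-rich fragments, had medians of 19.3 in WT and 17.5 in Ube3a2X PFC females, where the ranges did not overlap, and of 17.7 in WT and 20.1 in Ube3a2X PFC males, where they did. After removal of each library's trend on GC content and length, the sex by genotype term was -0.18 for Gria2 (edgeR adjusted p = 0.455), -0.25 for Gria4 (adjusted p = 0.455) and 0.12 for Grik5 (adjusted p = 0.591). Of the glial and vascular markers in PFC none was called by edgeR for these comparisons. In males 5 of 6 oligodendrocyte genes had an unadjusted p under 0.05, higher in Ube3a2X (summed level 962 to 2204 CPM in WT, 994 to 3453 CPM in Ube3a2X), as did 2 of 4 precursor genes (129 to 191 CPM, 187 to 241 CPM), 2 of 5 microglial genes (188 to 243 CPM, 261 to 295 CPM), 2 of 5 endothelial and mural genes (245 to 366 CPM, 317 to 545 CPM) and 1 of 6 astrocyte genes (895 to 1399 CPM, 1165 to 2176 CPM). For the sex by genotype term it was 3 of 4 precursor genes, 2 of 5 microglial genes, 2 of 5 endothelial and mural genes, 1 of 6 astrocyte genes and none of the 6 oligodendrocyte genes, each of the former with a positive term. Of all genes, 18.5% had such a p for genotype in males and 25.4% for the sex by genotype term. The summed level of 6 cortical excitatory genes also had a higher median in Ube3a2X males (2107 CPM in WT, 2390 CPM in Ube3a2X). So did that of 5 inhibitory neuron genes (760 and 803 CPM) and of 4 genes of cortical interneuron classes (362 and 396 CPM). The part of these markers in the subunit values was not tested. In Hypo no subunit passed for this term (0 of 9 by edgeR, DESeq2 and limma-voom, 1 with an unadjusted p under 0.05, beside 7.35% of all genes), and none of the 11869 genes did by edgeR. The 1 was Grik2 at 0.19 (95% interval 0.03 to 0.36, edgeR adjusted p = 0.661).

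By edgeR's test 1 subunit passed for sex, Grik1 in Hypo. This kainate gene stood at 23.5, 26.2, 29.4 and 31.2 CPM in WT females and at 24.98, 26.3, 26.8, 29.7 and 30.5 CPM in Ube3a2X females. In males it stood at 20.7, 21.4, 21.7 and 22.7 CPM in WT and at 19.0, 20.8, 21.1, 22.2 and 23.6 CPM in Ube3a2X. All but the highest male lay below every female. The log2 difference, male minus female, was -0.34 (SE 0.07, edgeR adjusted p = 0.0132). Among all genes tested in Hypo, 2.33% passed, and 1.01% passed with lower levels in males. DESeq2 and limma-voom called Grik1 as well. The call held on leaving out each of the 18 libraries, with adjusted p from 0.00676 to 0.0389. It was lost without the surrogate variables (log2 difference -0.35, edgeR adjusted p = 0.104), in a fit where 0.101% of all genes passed, and with the UTR share in their place (-0.32, adjusted p = 0.0762), where 0.539% did.

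**Figure D5:**
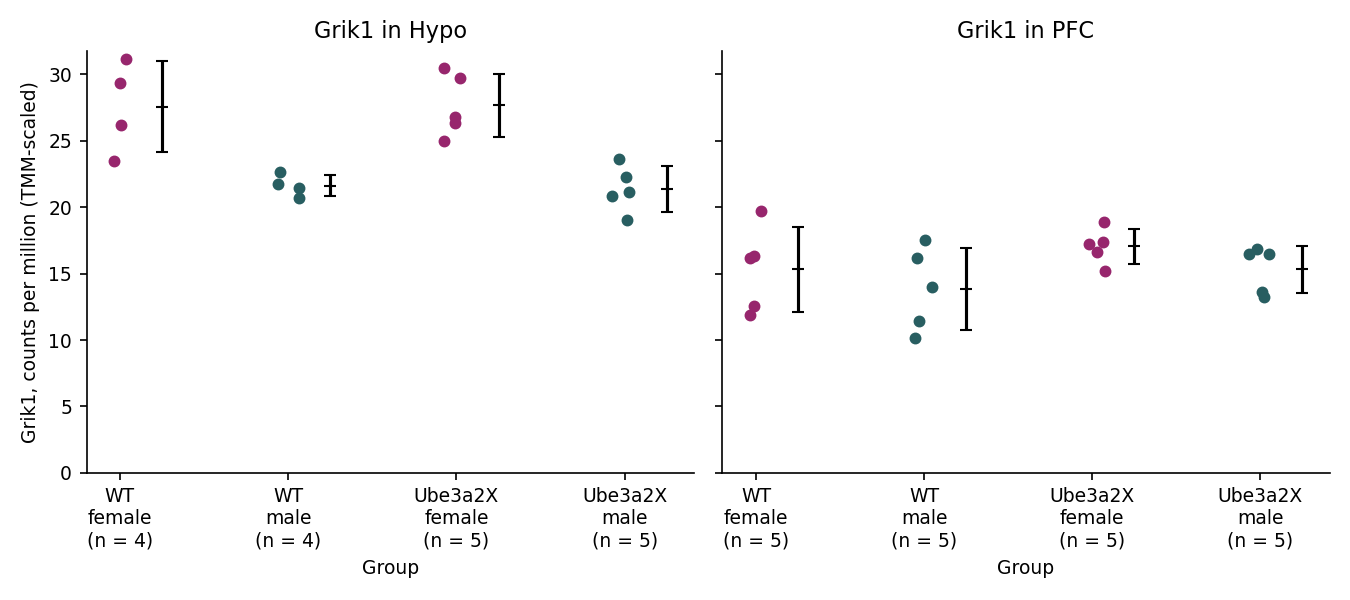
Grik1 in each library of Hypo (left) and PFC (right), in CPM, by genotype and sex. Points are single mice and the bars beside them are mean ± SD. In Hypo females range from 23.5 to 31.2 CPM and males from 19.0 to 23.6 CPM, whereas in PFC all groups overlap.

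In PFC the sex difference of Grik1 was 0.00 (95% interval -0.14 to 0.13, edgeR adjusted p = 0.996). In the fit over both tissues, which had no surrogate variables, the sex effect in PFC minus that in Hypo was 0.14 (SE 0.12, edgeR adjusted p = 0.608), so Grik1 was not shown to differ by sex in Hypo alone. No subunit passed for this term (edgeR, DESeq2 and limma-voom), 4 of the 9 had an unadjusted p under 0.05 by edgeR (Gria1, Gria3, Grik3 and Grik4), beside 10% of all genes, and 0.0633% of all genes passed by edgeR. In PFC no subunit passed for sex (0 of 8 by edgeR, DESeq2 and limma-voom). None had an unadjusted p under 0.05 by edgeR, beside 8.84% of all genes, and 0.0917% of all genes passed.

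Grik2, Grik3 and Grik4 lay next nearest to the threshold for sex in Hypo. Of the 9 subunits, 6 had an unadjusted p under 0.05 by edgeR, beside 17.8% of all genes. Grik2 ranged from 59.9 to 145 CPM in females and from 103 to 152 CPM in males, with a log2 difference, male minus female, of -0.14 (SE 0.04, edgeR adjusted p = 0.0703). Grik3 had a difference of 0.15 (SE 0.04, adjusted p = 0.0861) and Grik4 of 0.14 (SE 0.04, adjusted p = 0.0898). DESeq2 called these 3 as well (adjusted p = 0.0209, 0.0359 and 0.0367), beside 5.57% of all genes. With edgeR's own filter on low counts Grik2 passed (adjusted p = 0.0426), beside 1.09% of all genes. It stood at 0.01 without the surrogate variables, so its sign turned with that choice. Gria1 had a difference of 0.11 (SE 0.04, edgeR adjusted p = 0.130) and X-linked Gria3 of 0.10 (SE 0.05, adjusted p = 0.250). Of the 25 auxiliary and assembly genes tested for sex in Hypo, none passed by edgeR and 9 had an unadjusted p under 0.05, 4 higher and 5 lower in males. None of these genes passed for genotype in either tissue (0 of 26 in PFC, with 1 at an unadjusted p under 0.05, and 0 of 25 in Hypo, with 3).

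Cell type markers in Hypo are given by sex. The summed level of 5 inhibitory neuron genes was 833 to 1239 CPM in females and 614 to 1098 CPM in males, with none of the 5 called. For 4 genes of cortical interneuron classes it was 195 to 244 CPM and 178 to 204 CPM, with none called. Of 10 hypothalamic neuron genes 1 was called, Agrp, higher in males, and the sums were 738 to 2131 CPM in females and 528 to 966 CPM in males. Of 4 astrocyte genes tested 1 was called, Gfap, higher in males (all 6 genes summed to 1662 to 2107 CPM in females and 1946 to 2195 CPM in males). Of 5 pituitary genes 3 were tested and none called (67.2 to 4667 CPM in females, 37.2 to 712 CPM in males). Of 2 choroid plexus genes tested 1 was called, Kl, higher in males (the whole list summed to 38.3 to 53.1 CPM in females, 48.4 to 75.1 CPM in males). Of 4 microglial genes tested none was called, and 4 had an unadjusted p under 0.05, higher in males (the whole list summed to 132 to 162 CPM in females, 150.1 to 181 CPM in males). Their part in the Grik1 difference was not tested.

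Within groups the subunits varied together with different genes. The measure was Pearson's r between deviations from the group mean of log2 CPM, and it is given as a description. Both genes of a pair were read in the same libraries, so a library's depth and RNA quality enter both. In PFC, over 20 libraries, Gria2 was most like Zfp871 (r = 0.93), Gria3 like Trip12 (r = 0.95), Grik1 like Garnl3 (r = 0.96), Grik3 like Spon1 (r = 0.96) and Grik5 like Cep170b (r = 0.95). Gria1 was most like Slc7a14 (r = 0.87), Gria4 like Ddx46 (r = 0.93), Grik2 like Mysm1 (r = 0.96) and Grik4 like Dpysl5 (r = 0.79). In Hypo, over 18 libraries, Grik1 had the lowest r to its nearest gene, 0.80 to A230077H06Rik. Grik4 had r = 0.92 to Camk2a, and the other 7 subunits had r of 0.98 or 0.99 to theirs: Gria1 to Cdh13, Gria2 to Uggt2, Gria3 to Cyld, Gria4 to Rpgrip1l, Grik2 to Cep295, Grik3 to Fstl4 and Grik5 to Lmtk3. Some of this rested on 1 library. Without WT female 471 the r of Grik3 to Fstl4 was 0.87, that of Grik4 to Camk2a 0.83 and that of Gria4 to Rpgrip1l 0.92, whereas Grik5 to Lmtk3 stayed at 0.98.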

How the data were processed

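Per the labels and the study's methods, RNA was prepared with a stranded, poly(A)-selecting TruSeq kit, reads were aligned with STAR to GRCm38 (mm10), and the authors counted reads per gene with featureCounts. The deposited values are raw counts. The authors also deposited a quality table, with the shares of UTR, coding and intronic bases and of correct-strand reads as fractions. In it the authors deposited RIN and AT dropout as scores, and the 5′ to 3′ bias as a ratio. Tool versions are not given in the sources used here.

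Groups came from the sample titles. Of the 54165 gene IDs, 53905, with all 9 subunits, were found in GENCODE vM21 (GRCm38), which gave lengths, GC content and sequences and is not the Gencode release that the study's methods name. Counts were scaled by TMM and fitted with edgeR 4.0.16 (R 4.3.3, quasi-likelihood test, Benjamini-Hochberg adjustment over all genes, threshold 0.05). Tissues were compared over 38 libraries with RIN as covariate. Genes needed 100 reads in all but at most 1 library of the tissue (of either tissue where both were compared). Within tissues the 15% least variable genes were also removed, and RIN and 2 surrogate variables (sva 3.50.0) were covariates. limma 3.58.1 and DESeq2 1.42.0 were alternatives. CPM and RPKM use the TMM-scaled library sizes. Depth was 36.9 to 381 M counted reads, and no subunit had fewer than 496 reads in a library, so counting error is a small part of the spread between mice. Replicates are separate mice. The check of pairing over 13 mice with both tissues gave correlations of deviations from -0.46 to 0.35, with 3 above 0.1. The pairing comes from the mouse number in the titles. The members and lists were chosen with earlier results of these data known. The text names all 9 subunits, Cacng2, Cacng3, Cacng8, Cnih2, Cnih3, Neto1, Neto2 and Adarb1, and the called gene with the largest and the smallest log2 difference of each list between tissues, except for 1 list that is not reported here. Agrp, Cacng4, Gfap and Kl were named after their values were seen. The fits were also run on simulated counts with RIN alone, so the surrogate variables used within tissues were not covered. Of the smaller simulated genotype changes, 69% were recovered in PFC and 55% in Hypo.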

Additional observations from a re-analysis of the deposited data

Results flagged for a closer look

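Each subunit was examined in each of the 8 groups, 72 sets of 4 or 5 mice, for a library set far apart from the rest of its group. Chance flags about 1 in 20 sets, or 3.6 of 72, and 4 were found. In Hypo WT female 471, Gria1 stood at 334 CPM against 503 to 540 CPM in the other WT females, Gria2 at 188 CPM against 466.3 to 548 CPM, and Grik3 at 60.7 CPM against 160 to 168 CPM. The same library has the highest share of UTR bases (53.7%). In PFC Ube3a2X female 468, Gria4 stood at 223 CPM against 154 to 169 CPM, and this library has the lowest AT dropout of all (10.6).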

How the results depend on the processing

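Of the 9 subunits, 8 passed between PFC and Hypo, and 4 did with the mouse as a block. Leaving out 1 library at a time, 5 to 8 passed. For genotype in PFC males DESeq2 called 1 subunit where edgeR called 0. For the sex by genotype term in PFC, DESeq2 called 3 and a fit with RIN and the UTR share in place of the surrogate variables called 2, where the main comparison called 0, and leaving out single libraries gave 0 to 3. For sex in Hypo the count was 4 by DESeq2, 2 with edgeR's own filter on low counts, 0 without surrogate variables, 0 with the UTR share in their place, and 1 to 2 on leaving out single libraries. The cause was not tested. For the shares, the difference of Grik2 was -9.31 percentage points without scaling by length, that of Grik4 was -2.08 with coding length and -2.14 without scaling (-3.76 with exon length), that of Grik3 -4.36 and -4.49 (-7.08) and that of Gria4 -2.73 under both (-1.82). The sign turned without surrogate variables for Grik3 by genotype in Hypo (0.079 in place of -0.11) and for Grik2 by sex in Hypo (0.0088 in place of -0.14). Of the other single values outside the leave-one-out fits, 1082 kept their side of the threshold, 11 newly passed and 9 no longer passed. Within those fits the numbers were 2663, 10 and 8. These numbers include 203 values whose sign changed and whose main 95% interval includes 0. The fits without RIN, with the UTR share, with the mouse block and no RIN, and without PFC WT female 397 and Hypo WT female 471, and the ranges without Hypo WT female 471 alone, were chosen after the data were seen. With 4 or 5 mice a group, the 95% intervals of the genotype differences, and not the depth, limit what could be detected.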
